A study of Mus musculus with 10 samples.

Results

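Ung, Apex1, Msh6, Exo1, Batf, Bach2 and Bcl6 are 7 genes of antibody class switching and of the germinal centre, out of 25662 genes for which the arrays held a probe set annotated with that symbol alone. Where a gene had several such probe sets, one was chosen by its mean PLIER intensity over all 10 arrays, the brightest being used. Bcl6 was the only one of the 7 with a second probe set of its own, so intensity decided there and in no other gene. The 7 genes were put together by name, with earlier results of these arrays in view. CD117+ splenocytes came from 5 RasGRP4-null and 5 WT male mice of the C57BL/6 strain, all between 9 and 12 weeks of age. CD117 is the receptor that Kit encodes, and the RasGRP4-null line was made by homologous recombination and lacks a guanine nucleotide exchange factor of Ras. The cells were enriched for CD117 on magnetic beads, with no second marker, and cultured with 1 µg/ml of LPS. RNA was hybridized to 1 array for each genotype at 0, 12, 24, 36 and 48 h (10 arrays). No array was repeated, the labels did not say how the mice of a genotype were combined, and no array held cells kept for the same hours without LPS. Times are those of the array titles. The design text of the series lists 6 h and no 36 h, and the source names of the RasGRP4-null arrays of 24, 36 and 48 h carry an earlier time.

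Class switching and somatic hypermutation begin with uracil in the immunoglobulin genes of activated B cells. Uracil is then cut out by base excision repair or recognised as a mismatch, and the resulting breaks are joined by the end-joining machinery, which swaps the constant region of the antibody. In the germinal centre, B cells that undergo these changes divide and are selected, under transcription factors that hold back the plasma cell programme. LPS is a well-known stimulus for mouse splenic B cells in culture, without T cell help.

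The values are PLIER intensities, a summary over the probes of a set, and the background of an array was set at the 95th percentile of its 1089 olfactory receptor probe sets (29.1 to 38.5). Rasgrp4 was above background on 1 of 10 arrays, that of WT cells at 0 h (86.4), and was between 16.7 and 25.5 on the other 9 arrays, so the deletion could be checked at 0 h only. Kit was between 133.4 and 333.9 on all 10 arrays. The untreated cells were a mixture. All 12 measured macrophage and monocyte markers and all 12 B cell markers were above background at 0 h in both genotypes. So were all 9 dendritic cell markers and 10 of 11 T cell markers. In RasGRP4-null cells 9 of 9 NK cell, 9 of 10 neutrophil and 6 of 12 mast cell markers were above it. In WT cells these counts were 8, 8 and 4. The summed intensity of the macrophage and monocyte markers was 731 to 1247 in RasGRP4-null cells with LPS, against 20999.9 in the same genotype at 0 h. The corresponding WT sums were 676 to 980.2 with LPS, against 20309 at 0 h. The sum of the B cell markers was 5451 to 10378 in RasGRP4-null cells with LPS, against 8953 at 0 h, and 7712 to 11188 in WT cells with LPS, against 9755 at 0 h. In bulk RNA, fewer cells of a type and less RNA per cell cannot be told apart. How far these shifts in cell markers enter the values of the 7 genes was not tested.

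Averaged over the LPS times, 6 of the 7 genes had higher intensities than at 0 h and Bcl6 had a lower one. Among all genes tested, 48.2% were called higher and 21.5% lower. On a scale that levels Gapdh, the rises of Msh6, Bach2 and Apex1 were not seen. Exo1 and Batf changed most, and Ung, Apex1, Bach2 and Msh6 less. Apex1, Bach2 and Ung averaged lower at 36 and 48 h than at 12 and 24 h, and for Bach2 and Ung that call was lost when single arrays were left out. No difference between RasGRP4-null and WT cells passed the test for any of the 7 genes. The plot of intensity by hour shows these courses.

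**Figure D1:**
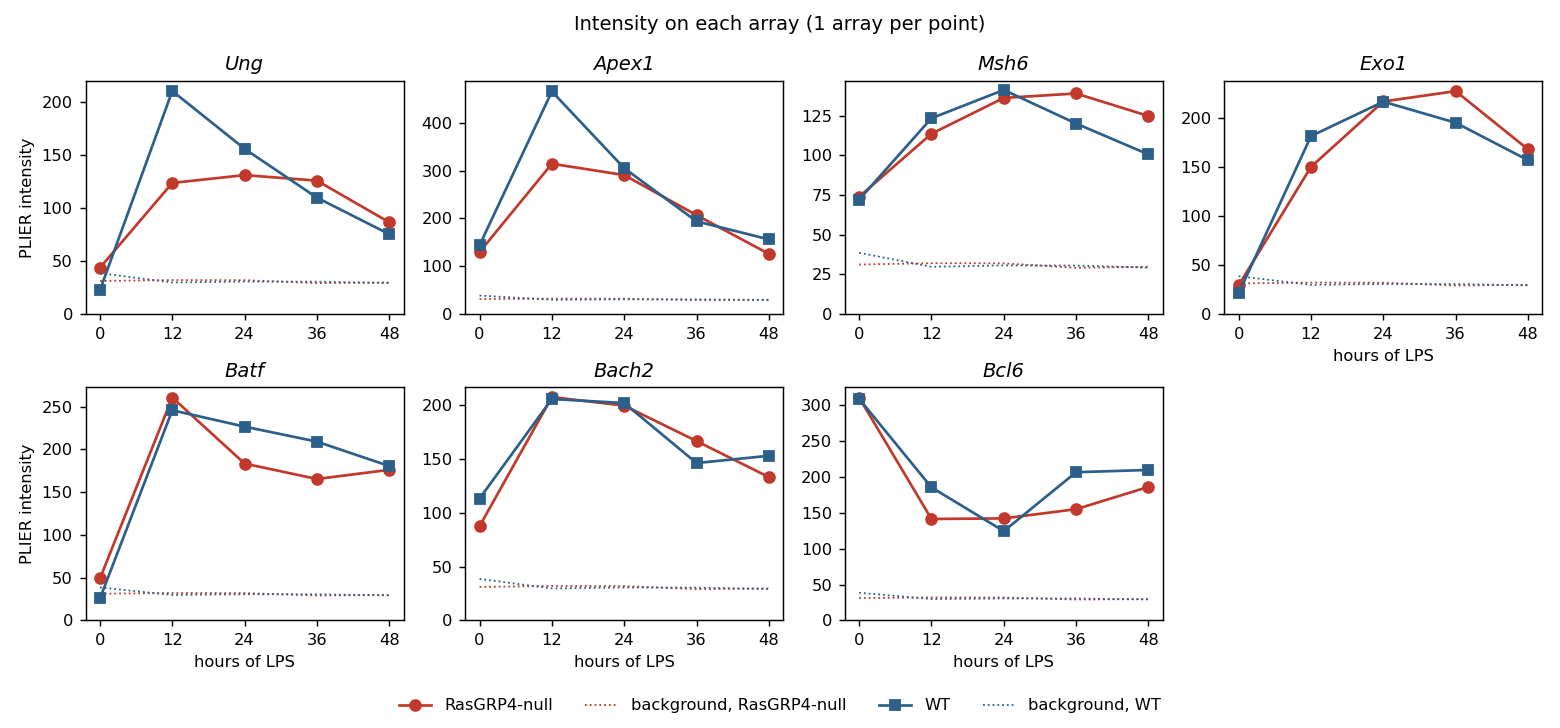
PLIER intensity (vertical axis, from 0) against hours of LPS for the 7 genes, with 1 array per point, RasGRP4-null in red circles and WT in blue squares. Dotted lines give the background of each array. The 0 h points of Exo1 lie under background in both genotypes, and those of Ung and Batf in WT only. Bcl6 alone is highest at 0 h.

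Start-site windows of 300 bases (250 before and 50 after the start) were taken from RefSeq on build GRCm38.p6 and matched 6 of the 7 genes by symbol, all but Exo1. The genome build of the array annotation was not given in the sources used here. The upstream 250 bases are shown for the 3 genes called lower on average at 36 and 48 h than at 12 and 24 h (Apex1, Ung and Bach2) and for both starts of Bcl6, the gene that fell with LPS. The Bach2 start used here lies inside the annotated gene (chr4:32238413-32586109) and not at its 5' end. Capitals mark CACGTG (an E-box) and TTCNNNGAA, the core that BCL6 and STAT factors are known to bind.
Apex1 (chr14:50924699-50924948, plus strand): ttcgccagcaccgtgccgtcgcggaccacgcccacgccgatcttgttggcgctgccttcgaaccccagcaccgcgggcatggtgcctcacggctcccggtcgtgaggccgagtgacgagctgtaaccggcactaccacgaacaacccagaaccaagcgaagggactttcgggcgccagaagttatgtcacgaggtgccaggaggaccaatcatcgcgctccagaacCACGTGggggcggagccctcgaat
Ung (chr5:114130185-114130434, plus strand): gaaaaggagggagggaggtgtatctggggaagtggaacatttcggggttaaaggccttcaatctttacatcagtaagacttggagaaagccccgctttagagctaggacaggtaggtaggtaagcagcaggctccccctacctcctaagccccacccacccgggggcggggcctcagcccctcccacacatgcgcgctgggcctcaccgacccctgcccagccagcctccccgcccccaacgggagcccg
Bach2 (chr4:32417185-32417434, plus strand): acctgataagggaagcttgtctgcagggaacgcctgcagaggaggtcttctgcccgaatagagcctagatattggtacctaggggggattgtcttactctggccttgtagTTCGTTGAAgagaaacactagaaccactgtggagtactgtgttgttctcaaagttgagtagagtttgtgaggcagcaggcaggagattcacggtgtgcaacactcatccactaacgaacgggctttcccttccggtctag
Bcl6, upstream start (chr16:23988853-23989102, minus strand): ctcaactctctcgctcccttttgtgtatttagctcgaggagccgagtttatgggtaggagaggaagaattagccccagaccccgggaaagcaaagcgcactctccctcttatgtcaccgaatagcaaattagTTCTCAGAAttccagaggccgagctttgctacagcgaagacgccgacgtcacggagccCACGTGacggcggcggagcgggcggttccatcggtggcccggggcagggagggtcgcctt
Bcl6, downstream start (chr16:23981284-23981533, minus strand): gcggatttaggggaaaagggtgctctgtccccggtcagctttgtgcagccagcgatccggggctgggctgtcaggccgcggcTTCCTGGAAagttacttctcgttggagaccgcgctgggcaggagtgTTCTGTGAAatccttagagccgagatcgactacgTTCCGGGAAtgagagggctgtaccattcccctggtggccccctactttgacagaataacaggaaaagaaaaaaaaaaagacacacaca

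Both strands were searched for CACGTG, TTTCCCGC and TTTGGCGC (forms of the E2F motif), TGANTCA (AP-1) and TTCNNNGAA, and no 2 matches in the 7 windows overlapped. CACGTG stood 3 times in the Apex1 window, 24 bases before the start, at the start base and 21 bases after it, and once at the upstream start of Bcl6, 60 bases before it. It was found in 7.15% of all 32851 windows. TTCNNNGAA stood 3 times at the downstream start of Bcl6 (168, 122 and 88 bases before it), once at the upstream start (118 bases before it) and once in the Bach2 window (140 bases before the start), against 8.30% of all windows. TTTCCCGC, which 1.07% of windows held, was in the Msh6 window 15 bases after the start. The Ung and Batf windows held none of the 5 motifs. GC content was 64.7% for Ung, 63.3% for Apex1, 71.7% for Msh6, 49.7% for Batf, 50.3% for Bach2, and 62.7% and 51.7% for the upstream and downstream starts of Bcl6, with a median of 52.7% over all windows. These matches describe the sequence and say nothing of whether a factor was bound.

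Ung encodes the uracil-DNA glycosylase that removes uracil from DNA. Along the course of 0, 12, 24, 36 and 48 h of LPS, its PLIER intensity was 43.6, 123.8, 131.1, 125.9 and 86.6 in RasGRP4-null cells. The WT arrays read 22.5, 210.6, 156.0, 109.8 and 75.3 in the same order of hours, which is kept for the genes that follow. All 8 LPS arrays were above both 0 h arrays, with the highest value in WT cells at 12 h. The WT 0 h value was under background (38.5), so the mean of the WT LPS arrays was at least 3.33-fold over it (geometric means, with a 0 h value under background replaced by the background). In RasGRP4-null cells, where the 0 h value was above background, the mean was 2.64-fold. On the log2(PLIER + 16) scale, which understates changes of dim genes, the 4 LPS times averaged 1.53 over 0 h (SE 0.193, adjusted p = 3.52e-05, limma fit with genotype and time point).

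Apex1 encodes the apurinic/apyrimidinic endonuclease that nicks DNA at the site the glycosylase leaves. RasGRP4-null cells had intensities of 129.6, 314.4, 290.7, 206.8 and 125.8 from 0 to 48 h. WT cells had 143.8, 465.7, 305.2, 193.9 and 156.1. Apex1 was high at 12 and 24 h in both genotypes and back near its 0 h value at 48 h. The 48 h value was 0.971 times that of 0 h in RasGRP4-null cells and 1.09 times in WT cells. The LPS arrays therefore overlapped with those of 0 h. The mean LPS response was 0.74 on the log2 scale (SE 0.125, adjusted p = 3.01e-04 by limma). It was 0.27 when 36 and 48 h alone were set against 0 h, which did not pass (adjusted p = 0.104 by limma).

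Msh6 encodes a subunit of the complex that recognises the U:G mismatch. Its intensities from 0 to 48 h were 73.9, 113.6, 136.2, 139.0 and 124.8 in RasGRP4-null cells. Those of WT cells were 72.1, 123.3, 141.2, 120.0 and 100.6. The 0 h values of both genotypes were close to each other and under all 8 LPS values, which stayed within a narrow range. The mean over LPS was 1.73-fold that of 0 h in RasGRP4-null cells and 1.67-fold in WT cells. The log2 difference was 0.66 (SE 0.110, adjusted p = 2.83e-04 by limma).

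Exo1 encodes the exonuclease that resects DNA from the mismatch. The 5 RasGRP4-null arrays, in order of hours, gave 29.4, 150.2, 216.9, 227.5 and 168.1. The 5 WT arrays gave 21.2, 181.7, 216.7, 195.3 and 157.0. Exo1 was under background on both 0 h arrays and well above it on all 8 LPS arrays. The LPS mean was at least 5.40-fold higher over both genotypes. Its log2 difference was 2.31 (SE 0.119, adjusted p = 3.48e-08 by limma), the largest among the 7 genes.

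Batf encodes an AP-1 family factor that B cells need for switching and that T cells and other cells also use. From 0 to 48 h the RasGRP4-null intensities were 49.0, 260.6, 183.3, 165.3 and 176.1. The WT intensities were 25.7, 245.7, 226.6, 209.0 and 180.5. Batf was highest at 12 h in both genotypes and stayed above both 0 h arrays throughout. The LPS mean was 3.94-fold that of 0 h in RasGRP4-null cells and at least 5.56-fold in WT cells, where the 0 h value was under background. The log2 difference was 2.08 (SE 0.162, adjusted p = 8.74e-07 by limma).

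Bach2 encodes a repressor that restrains the plasma cell programme, also known for its part in T cells. RasGRP4-null cells measured 87.6, 207.7, 199.8, 166.8 and 133.3 along the time course. Bach2 in WT cells measured 113.4, 205.9, 202.2, 146.4 and 153.1. At 12 and 24 h the 4 arrays lay between 199.8 and 207.7, and the lowest LPS value, in RasGRP4-null cells at 48 h, was still above both 0 h values. The LPS mean was 1.99-fold in RasGRP4-null cells and 1.54-fold in WT cells. The log2 difference was 0.72 (SE 0.115, adjusted p = 2.02e-04 by limma).

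Bcl6 encodes the repressor that defines germinal centre B cells and follicular helper T cells and that other leukocytes express as well. Its intensities in RasGRP4-null cells, again from 0 to 48 h, were 310.6, 141.3, 142.2, 155.0 and 186.0. WT cells gave 308.8, 185.5, 124.4, 206.6 and 209.7. Both 0 h arrays were above all 8 LPS arrays. The log2 difference was -0.84 (SE 0.125, adjusted p = 1.21e-04 by limma). The second probe set of Bcl6 was dim, at most 18.4 on the RasGRP4-null LPS arrays against 51.2 at 0 h, and at most 25.8 on the WT LPS arrays against 39.6 at 0 h. It was above background on 2 arrays only, both of 0 h. All 12 macrophage and monocyte markers tested, all 8 neutrophil markers and 6 of 8 dendritic cell markers also fell with LPS. So did 5 of 9 T cell, 4 of 7 NK cell and 3 of 12 B cell markers, against 21.5% of all genes tested. In these lists 2 dendritic cell, 2 NK cell and 5 B cell markers were called higher. The part of these cells in the Bcl6 values was not tested.

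In all, 6 of the 7 genes passed the test upward and 1 downward with LPS. Ung, Exo1 and Batf were at 50 or more on the 8 LPS arrays only. They thus met the intensity filter (at least 50 on at least 2 arrays) only through the arrays where they were high. Among the 11185 genes tested, 48.2% were called higher and 21.5% lower, so that calls in either direction were common on these arrays. The median log2 difference was 0.74 for the 7 genes and 0.26 for all genes tested. In 5 of the 7 genes (Ung, Msh6, Exo1, Batf and Bach2) all LPS arrays were above both 0 h arrays, which held for 41.6% of all genes. In Bcl6 all were below, as in 19.2% of all genes. The direction of the smaller changes depended on the scale. The Gapdh probe set read 1899 (RasGRP4-null) and 2081 (WT) at 0 h and 3502 to 4509 on the LPS arrays. The GAPDH-normalized scale levels Gapdh, so it multiplied these 0 h arrays by 2.41 and 2.24 and the LPS arrays by 1 to 1.31. Of the calls among all genes, 69.2% were upward on the PLIER scale, 59.7% after quantile normalization and 11.0% on the GAPDH-normalized scale, where the median of all genes was -0.70. On that scale Ung, Exo1 and Batf were still called higher and Bcl6 lower, while Msh6 (-0.28), Bach2 (-0.24) and Apex1 (-0.25) had negative log2 differences that did not pass (adjusted p of 0.0942, 0.165 and 0.115 by limma).

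**Figure D2:**
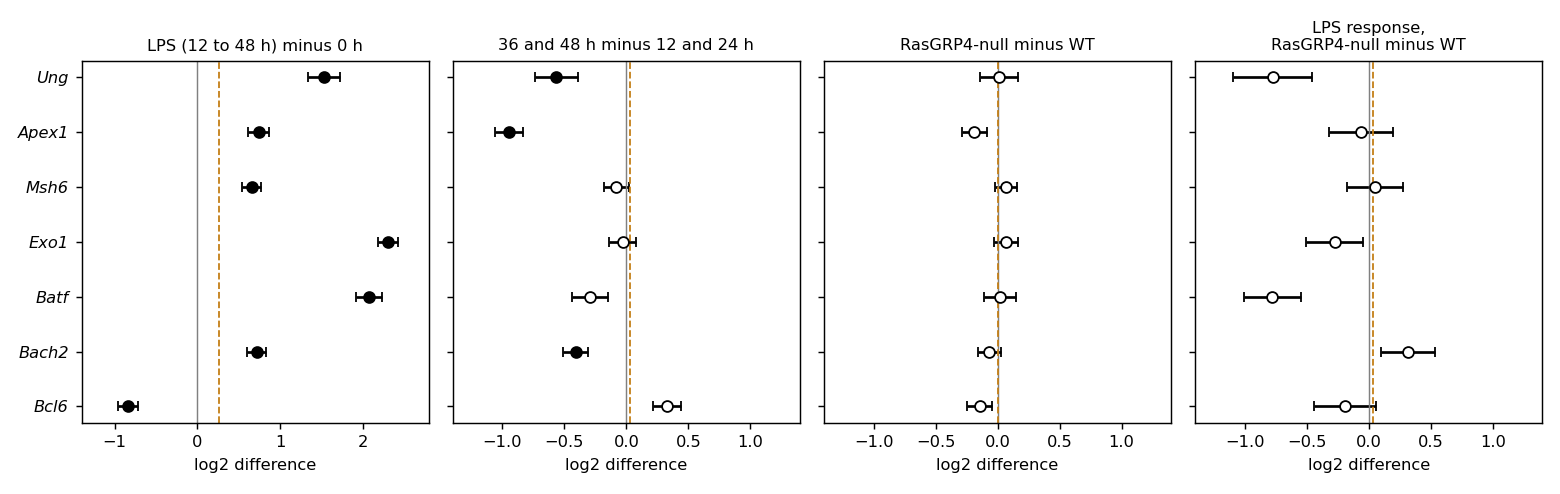
Log2 difference (horizontal axis, log2(PLIER + 16)) with its standard error for each of the 7 genes in the 4 comparisons, from limma over 10 arrays, with filled points for an adjusted p under 0.05. The dashed line is the median of the 11185 genes tested. Exo1 (2.31) and Batf (2.08) lie farthest right in the LPS panel, 3 genes are filled in the panel of late against early LPS, and none in the 2 genotype panels.

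Genes of the pathway were counted from lists chosen, like the 7 genes, with earlier results known. Some lists hold genes of the 7. Their counts stand beside 48.2% of all genes called higher and 21.5% called lower, with a median of 0.26. With LPS, 10 of the 17 tested genes of uracil formation and repair rose and none fell (median log2 difference 0.58). Without Ung and Apex1, 8 of 15 rose and none fell (median 0.50). The genes that rose included Xrcc1 (1.08), the scaffold of base excision repair. Rpa2 (1.19) and Rpa3 (1.10), subunits of the single-strand binding protein RPA, were also among them. Exosc10 (0.91) and Exosc3 (0.50), of the RNA exosome, and the elongation factor Supt5 (0.58), named after their values were seen, are on this list and rose too, though they repair no uracil. Of 11 tested genes of mismatch repair and error-prone synthesis, 9 rose and none fell (median 0.77). Without Msh6 and Exo1, 7 of 9 rose and none fell (median 0.77). The translesion polymerase Polh rose by 1.90, the polymerase Polq by 1.42 and Pms1, a MutL homologue, by 0.87. Of 18 tested genes of the break response and end joining, 17 rose and none fell (median 0.80), among them the kinase Atm (1.45), the histone H2afx (1.18), the Ku subunit Xrcc6 (1.06) and the ubiquitin ligase Rnf168 (1.07). On the GAPDH-normalized scale Polh, Polq and Atm were still called higher, whereas Rpa2 (0.28), Rpa3 (0.26), Xrcc1 (0.14), Pms1 (0.23), H2afx (0.12), Xrcc6 (0.18) and Rnf168 (0.11) did not pass (adjusted p of 0.0841 to 0.490 by limma). DNA replication and division moved too, with 26 of 27 tested genes higher and a median of 1.60. The summed intensity of that list was 5468 to 11409 in RasGRP4-null cells with LPS, against 2705 at 0 h, and 7682 to 10961 in WT cells with LPS, against 2758 at 0 h. Its part in the rise of the repair genes was not tested.

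Of 19 tested transcription factors of the germinal centre and of switching, 10 rose and 5 fell with LPS (median 0.31). Without Batf, Bach2 and Bcl6, 8 of 16 rose and 4 fell (median 0.24). Both counts were near the shares of all genes called higher (48.2%) and lower (21.5%). Ezh2, the histone methyltransferase of germinal centre B cells, rose by 1.75 and Pou2f2, which encodes OCT2, by 1.21. Pou2f2 did not pass on the GAPDH-normalized scale (0.20, adjusted p = 0.258 by limma). Id2, an inhibitor of E proteins, was lower by 1.20 on the log2 scale (-1.20). Irf4, which B cells use both for switching and for plasma cell formation, rose by 0.53 (SE 0.145, adjusted p = 0.00704 by limma), a call lost without the RasGRP4-null 0 h array (0.24, adjusted p = 0.244 by limma) and turned to -0.52 on the GAPDH-normalized scale (adjusted p = 0.00625 by limma). Of 21 surface receptors and signals, 10 rose and 8 fell, so that the share of higher calls and the median (0.28) were close to those of all genes. The BAFF and APRIL receptor Tnfrsf13b rose by 2.98, the death receptor Fas by 2.22 and the BAFF receptor Tnfrsf13c by 2.05, whereas the plexin Plxnb2 fell (-1.95).

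Bcl6 and Bach2 are known to hold back Prdm1, which encodes the plasma cell regulator BLIMP1. Of 8 tested genes of that programme, 5 rose and 2 fell with LPS (median 0.52). Over all genes tested, 48.2% were called higher and 21.5% lower (median 0.26). Prdm1 had intensities of 121.9, 349.5, 460.3, 561.2 and 581.3 in RasGRP4-null cells from 0 to 48 h. Its WT intensities were 89.7, 234.2, 264.0, 321.2 and 334.2. Prdm1 was lowest at 0 h and higher at each following time point in both genotypes. Bcl6 was highest at 0 h, whereas Bach2 was lowest there and, like Prdm1, higher on all 8 LPS arrays. The LPS response of Prdm1 was 1.68 (SE 0.113, adjusted p = 3.08e-07 by limma). Mzb1, an endoplasmic reticulum protein of antibody-secreting cells, rose by 1.10 and Xbp1, the unfolded protein response factor, by 0.74. The elongation factor Ell2 fell (-1.19). Igj, named after its values were seen, was the other gene that fell (-1.08, adjusted p = 8.29e-04 by limma). On the GAPDH-normalized scale Xbp1 was at -0.31 and Mzb1 at 0.056, and neither passed.

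**Figure D3:**
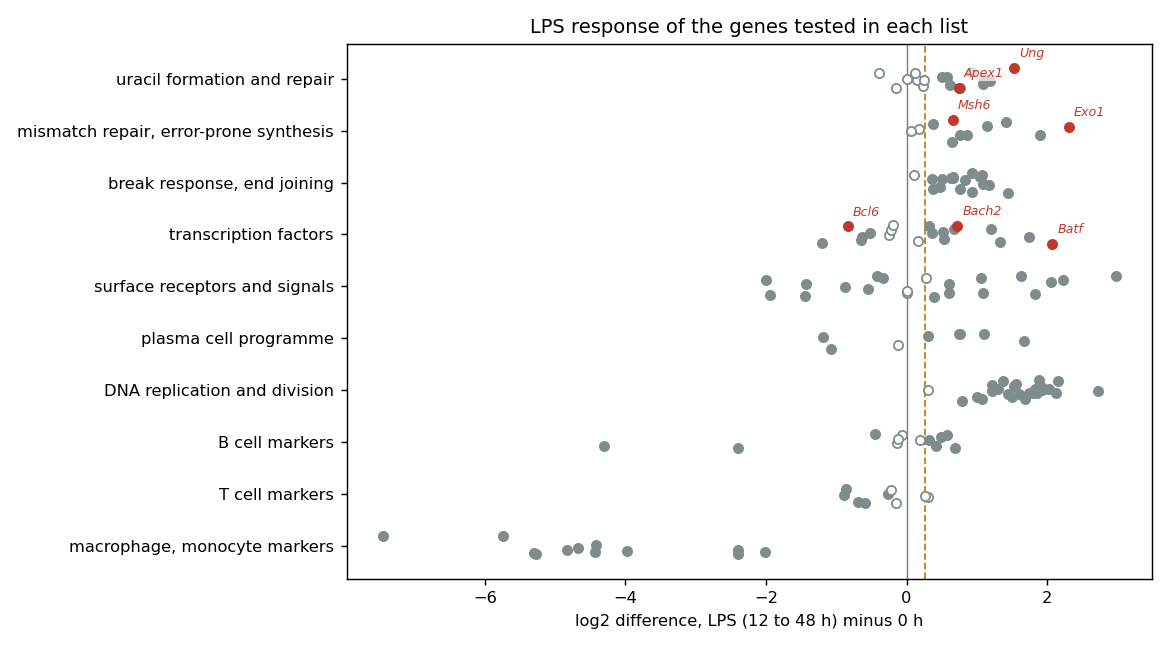
Log2 difference of the mean of 12 to 48 h of LPS over 0 h (horizontal axis) for each tested gene (point) of 10 lists, with filled points for an adjusted p under 0.05 by limma and the 7 genes in red with their names. The dashed line is the median of all genes tested, 0.26. Repair and replication lists lie almost wholly to the right of 0, transcription factors and receptors on both sides, and macrophage and monocyte markers wholly to the left.

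The time course within LPS divided the 7 genes. Apex1, Ung and Bach2 (3 of 7) were lower at 36 and 48 h than at 12 and 24 h, and none of the 7 was called higher. Over all genes tested, 9.86% were called lower and 16.7% higher in this comparison. Apex1 fell by 0.95 on the log2 scale (SE 0.112, adjusted p = 2.63e-04 by limma). Its late values, 206.8 and 125.8 in RasGRP4-null cells and 193.9 and 156.1 in WT cells, were all under its early ones. Bach2 fell by 0.41 (SE 0.103, adjusted p = 0.0134 by limma), with late values of 133.3 to 166.8 and early values of 199.8 to 207.7. Full separation of the late arrays below the early ones, as in Apex1 and Bach2, was found in 9.67% of all genes. The Bach2 difference was -0.37 once RasGRP4-null cells at 48 h were left out and -0.34 once WT cells at 36 h were, and neither passed (adjusted p of 0.0630 and 0.0953 by limma).

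Ung fell by 0.56 at the late times (SE 0.173, adjusted p = 0.0329 by limma), and its late arrays (75.3 to 125.9) overlapped with the early ones (123.8 to 210.6). This call was lost when any 1 of 7 arrays was left out, those of RasGRP4-null cells at 24, 36 and 48 h and of WT cells at 12, 24, 36 and 48 h, with adjusted p between 0.0504 and 0.159 by limma. Without the WT 12 h array, the brightest, the difference was -0.34. Msh6 (-0.08, adjusted p = 0.610) and Exo1 (-0.03, adjusted p = 0.875) did not pass in limma, and Batf (-0.30, adjusted p = 0.161) did not either. Bcl6 was the only gene of the 7 with a positive difference, 0.33 (SE 0.112), just short of the threshold (adjusted p = 0.0524 by limma, unadjusted p = 0.0141 in the same fit). Its late arrays (155.0 to 209.7) overlapped with the early ones (124.4 to 185.5). In the replication and division list 14 of 27 genes rose and 1 fell over the same interval, against 16.7% higher and 9.86% lower over all genes. Of the B cell markers 5 of 12 rose, of the T cell markers 4 of 9 and of the NK cell markers 2 of 7, and none fell. Among dendritic cell markers 2 of 8 fell, as did 2 of 12 macrophage and monocyte and 3 of 8 neutrophil markers, and none rose.

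Across the 8 LPS arrays, log2 intensities of Apex1 ran close to those of Bach2 (Pearson r = 0.93) and Ung (r = 0.92), and those of Exo1 to those of Msh6 (r = 0.87). Batf had r = 0.73 with Apex1 and r = -0.34 with Exo1. Bcl6 had a negative r with each of the other 6 genes, between -0.70 (Bach2) and -0.25 (Batf). These coefficients describe 8 arrays that share 4 time points, and carry no test. Over all 10 arrays, the step between 0 h and LPS included, r was 0.96 for Msh6 and Exo1 and -0.91 for Msh6 and Bcl6.

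Among all genes tested, those with the most similar course over the 10 arrays were named for each gene. Exo1 was most like Pola2 (r = 0.996), Fen1 (r = 0.996) and Tubg1 (r = 0.994), which encode a subunit of DNA polymerase alpha, a flap endonuclease and gamma-tubulin. Batf was most like Nup88 (r = 0.996), Poglut1 (r = 0.989) and Isg15 (r = 0.988), and Ung was most like Nup107, Slmo2 (r = 0.989 each) and Immt (r = 0.983). Apex1 was most like Metap2 (r = 0.987), Api5 (r = 0.984) and Pus7l (r = 0.979), and Bach2 most like Pbdc1 (r = 0.984), Tmem183a (r = 0.979) and Exosc7 (r = 0.977). Msh6 was most like Qrsl1 (r = 0.989), Gmds (r = 0.985) and Acot3 (r = 0.985). Bcl6 was most like Mapre3 (r = 0.986), Tk2 (r = 0.971) and Wdfy2 (r = 0.970). These coefficients were the highest among 11185 genes over 10 arrays that share 5 time points, and carry no test.

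RasGRP4-null and WT cells were then compared over the 5 time points. None of the 7 genes was called in either direction by limma, and none had an unadjusted p under 0.05. Over all genes 0.152% were called higher and 0.0268% lower in RasGRP4-null cells (17 and 3 genes), with 700 and 351 at an unadjusted p under 0.05. Apex1 had the lowest value, -0.19 (95% interval -0.41 to 0.03, adjusted p = 0.628 by limma), and was lower in RasGRP4-null cells at 4 of 5 time points. Bcl6 was at -0.14 (95% interval -0.36 to 0.08), Bach2 at -0.07 (-0.27 to 0.14), Msh6 at 0.07 (-0.13 to 0.26) and Exo1 at 0.07 (-0.14 to 0.28). The intervals of Ung (0.01, -0.33 to 0.35) and Batf (0.02, -0.27 to 0.30) were the widest. Of the 8 tested genes of the plasma cell programme, 2 were called higher in RasGRP4-null cells and none lower (median 0.40). Prdm1, 1 of these 2, was higher in RasGRP4-null cells at all 5 time points, by 0.65 (SE 0.0905, adjusted p = 0.0229 by limma). That call was lost when either array of 24, 36 or 48 h was left out (adjusted p of 0.124 to 0.227 by limma). Leaving out either array of a time point gave the same difference, and the differences lay between 0.62 and 0.71. A t-test paired by time point did not call Prdm1 either (adjusted p = 0.431 by that test).

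Single time points, each 1 array against 1, differed more. At 12 h Ung was at 123.8 in RasGRP4-null cells and 210.6 in WT cells (ratio 0.588), and Apex1 at 314.4 in RasGRP4-null cells and 465.7 in WT cells (ratio 0.675). At 0 h Ung was at 43.6 in RasGRP4-null cells and 22.5 in WT cells, and Batf at 49.0 in RasGRP4-null cells and 25.7 in WT cells. Both WT values were under background, so these ratios could not be read exactly. With 1 array each, none of these differences has a replicate check.

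**Figure D4:**
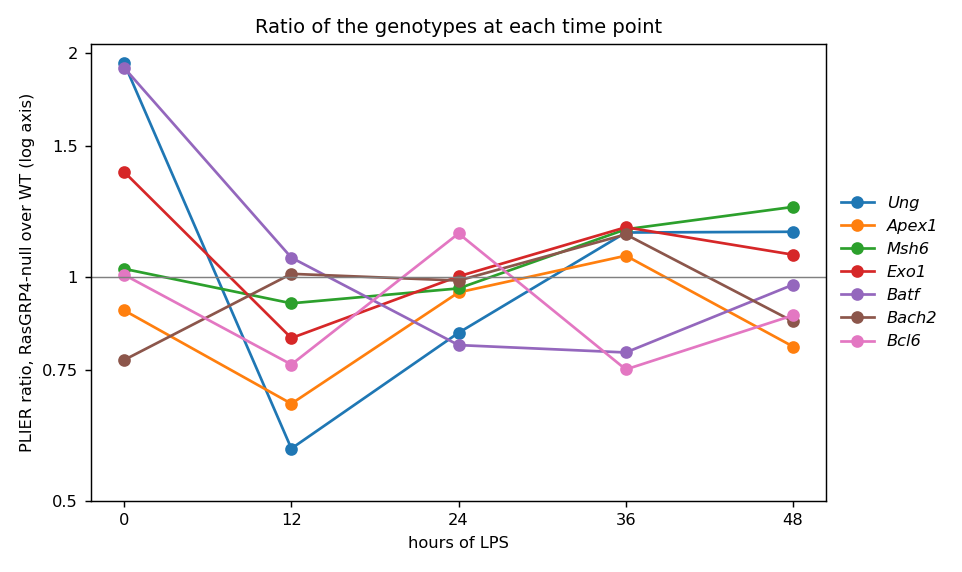
Ratio of PLIER intensities, RasGRP4-null over WT (vertical log axis), at each time point for the 7 genes, with 1 array per genotype behind each point. Ung and Batf stand apart at 0 h, where the WT values were under background, and Ung (0.588) and Apex1 (0.675) are lowest at 12 h.

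The size of the LPS response did not differ between the genotypes past the threshold for any of the 7 genes. Over all genes, limma's interaction term called 0.134% higher and 0.0447% lower in RasGRP4-null cells (15 and 5 genes), with 577 and 262 at an unadjusted p under 0.05. Batf (-0.78, SE 0.230, unadjusted p = 0.00647, adjusted p = 0.375 by limma) and Ung (-0.77, SE 0.317, unadjusted p = 0.0335, adjusted p = 0.592 by limma) were the 2 members with an unadjusted p under 0.05. In both, the WT 0 h value that enters this difference was under background. The fit could not be made without either 0 h array, so that each difference rests on that pair. Bach2 was at 0.32 (SE 0.217) and the other 4 genes lay between -0.27 and 0.05.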

How the data were processed

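RNA of CD117+ splenocytes was measured on 10 Affymetrix MoGene-2.0-st arrays. The authors computed PLIER intensities in Affymetrix Expression Console and deposited them together with a table in which each array is multiplied by 1 factor that levels Gapdh (largest difference from that product 0.5). Genome build and annotation version are not given in the sources used here. Of 41345 probe sets, 26679 carried 1 symbol, 3047 several and 11619 none, and symbols that differed only in case were merged. For this work 20 per-sample columns that repeat these values were not used.

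The 7 genes and all gene lists were chosen with earlier results of these data known. The text names the 7 genes, up to 4 genes per list with the smallest p for LPS, Prdm1 and Irf4, and the 3 genes most similar to each of the 7. Exosc10, Exosc3, Supt5 and Igj were named after their values were seen. Some genes of the lists are not reported here. Additive terms for genotype and for each time were fitted by limma 3.58.1 (R 4.3.3) on a log2(PLIER + 16) scale, leaving 4 residual degrees of freedom, and the interaction added genotype by LPS, leaving 3, over 11185 genes of at least 50 on at least 2 arrays. Tests were two-sided with Benjamini-Hochberg adjustment over all genes tested and a threshold of 0.05. Arrays of 1 genotype may come from a common preparation, so p-values measure only the spread between these arrays, and the number of arrays limits the precision. Alternatives covered scale, normalization, pseudocount, filter, probe sets, variance trend, time points, each array left out, the methods' t-test and the study's fold rule (over 3.6-fold and over 1% of Gapdh). For a fall, that 1% was required at 0 h and not with LPS. Tables and figures were made with numpy 2.4.6, matplotlib 3.10.9 and pandas 2.3.3 under Python 3.11.15.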

Additional observations from a re-analysis of the deposited data

Results flagged for a closer look

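The difference between RasGRP4-null and WT cells ran one way at both early times and the other way at both late times in Ung and in Msh6. Both were flagged by these signs alone. How many of all genes tested show such signs was not counted. For Ung the log2 difference, RasGRP4-null minus WT, was -0.70, -0.23, 0.17 and 0.17 over 12, 24, 36 and 48 h. The mean of 36 and 48 h minus that of 12 and 24 h was 0.63 (SE 0.198, unadjusted p = 0.0106, adjusted p = 0.277 over 11185 genes, limma on the 8 LPS arrays). For Msh6 the values were -0.10, -0.05, 0.19 and 0.27, and the difference was 0.31 (SE 0.167, adjusted p = 0.462 by limma). Neither passed the threshold, which 3 of all genes tested passed in that fit with 2 residual degrees of freedom. No group holds more than 1 array, so no single array could be tested against others of its group.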

How the results depend on the processing

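Apart from the study's fold rule, the 7 genes kept their LPS direction and call in 136 of 140 combinations of gene and alternative. The others were Apex1 at 36 and 48 h only and, on the GAPDH-normalized scale, Msh6 (-0.28), Bach2 (-0.24) and Apex1 (-0.25), along with Xbp1 (-0.31) and Irf4 (-0.52). On that scale the LPS calls of Rpa2, Rpa3, Xrcc1, Pms1, H2afx, Xrcc6, Rnf168, Pou2f2 and Mzb1 were also lost, at positive differences of 0.056 to 0.28. That scale left 3 of the 7 genes called higher (955 higher and 7735 lower of all genes, against 5388 and 2402). The genes called lower were 3937 with no filter and 1487 with a filter at 100. By the study's fold rule, met on at least 1 LPS array in both genotypes, 170 genes were higher and 1577 lower, with 0 of the 7 genes higher and Bcl6 lower. For a fall, over 1% of Gapdh was required at 0 h here, whereas the study asked it of the LPS-treated sample. In WT cells alone, Exo1 passed that rule upward on 4 LPS arrays, Batf on 3 and Ung on 1. In RasGRP4-null cells each of them passed it on 0. The WT 0 h values of these genes were under background. For late against early LPS, 108 of 126 combinations kept direction and call. With pseudocount 64, a filter at 100 or a variance trend, 1 gene of the 7, Bcl6, was called higher, and the Ung call was lost with pseudocount 1 or no filter. Leaving out each array gave 0 to 1 of the 7 genes higher, 1 to 3 lower, 1082 to 1896 genes higher and 602 to 1142 lower. Exo1 then ranged from -0.13 to 0.069.

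For RasGRP4-null minus WT no alternative called any of the 7 genes in the additive fit. The genes called higher, 17 in the fit reported, were 7 after quantile normalization, 9 with pseudocount 1, 10 with pseudocount 64, 8 with no filter and 9 over all probe sets with 1 symbol. Those called lower, 3 in the fit reported, were 1 on the GAPDH-normalized scale, after quantile normalization, with no filter and over all probe sets, and 5 over the LPS times only. The methods' t-test, paired by time point, called 848 genes at an unadjusted p under 0.05, none of the 7 among them, and 0 higher and 0 lower after Benjamini-Hochberg adjustment. Ung and Batf, near 0, turned to -0.034 and -0.022 with pseudocount 64 and to -0.15 and -0.14 over the LPS times only. Leaving out each array gave 1 to 20 genes higher and 0 to 5 lower, with Ung from -0.15 to 0.19 and Batf from -0.14 to 0.10.

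The interaction called 24 genes higher and 8 lower with pseudocount 1, 4 and 3 with pseudocount 64, 40 and 13 with no filter, 4 and 0 with a filter at 100, and 3 lower with a variance trend. Msh6, at 0.05, was 0.00 (-0.0045) on the GAPDH-normalized scale and -0.059 after quantile normalization. Leaving out each LPS array gave 1 to 16 genes higher and 0 to 4 lower, Msh6 from -0.017 to 0.11 and Apex1 from -0.16 to 0.048. The interaction could not be fitted without either 0 h array, and where a time point kept 1 array that array was assumed to vary like the others. The cause of these shifts was not tested. Genotypes were paired by time point in the additive fit and in the methods' t-test. The labels carry no replicate numbers, so there was no other block to try. Signal near background limits the 0 h values of Exo1 and, in WT cells, of Ung and Batf.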
